A study of Mus musculus with 8 samples.

Results

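Macrophages are the main immune cells that enter muscle when its fibers are damaged, where they clear debris, take up lipid and cellular remains, and send signals to satellite cells and fibroblasts. Their surface carries receptors for growth factors, for antibodies and for sugars and lipids, and the set of receptors that they display differs between cells that live in healthy tissue, cells that have recently come from the blood and cells that have taken up much lipid. The expression of 40 genes that mark macrophages or their states of activation was examined in TA (tibialis anterior) muscles of *mdx5cv* and WT mice. These genes were picked by name, as the rows of the table whose gene symbol is on the list, and all 40 were found among its 55401 genes. They were sorted into 6 groups by their known roles, which are core identity, resident-type, lipid-associated, Fc receptor, surface recognition and activation state.

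RNA-seq was performed on whole TA muscles of 4 *mdx5cv* and 4 WT mice. All were males 6 mo of age. The WT mice were C57/Bl6, and the *mdx5cv* mice carry a mutation of *Dmd* on that same B6 background and model Duchenne muscular dystrophy; the labels give no treatment and no other allele. The labels number the muscles within each genotype without naming the animals, so the p-values below measure the spread between these samples. The authors deposited normalized counts, which are the reads of each gene divided by 1 size factor per sample, and the whole reads that were recovered from them summed to between 13175524 and 14921057 per muscle. Differences were tested with limma on log2(normalized count + 1), two-sided, for the 13677 genes whose normalized count averaged at least 10 over the muscles, with Benjamini-Hochberg adjustment over all of them. To be called, a gene needed an adjusted p under 0.05 together with a log2 fold change of 1 or more in either direction. Standard errors of the fold changes are given as SE. This log2 scale understates the change of genes with few reads. Over all 13677 genes the median log2 fold change was 0.00 with these size factors and 0.36 when each library was scaled to the same total. In whole muscle, fewer cells of a type and less RNA per cell cannot be told apart, so each value is a level in the muscle and not in a macrophage.

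Most of the macrophage genes were higher in *mdx5cv* muscle. Of the 35 that were tested, 31 rose and 1, *Cd163*, fell, whereas 10.3% of all genes tested rose and 3.27% fell by the same rule. Among the 31, *Aif1*, *Spi1*, *Trem2*, *Fcgr1*, *Fcgr4*, *Cd14*, *Ly86*, *Slamf8* and *Cd86* averaged under 10 in WT. They passed the filter only through their *mdx5cv* values, so their rise was favored by the filter. Where every muscle had to reach a normalized count of 10, 13 of 17 genes rose and 1 fell, and no share over all genes was taken with that filter. The median log2 fold change of the 35 was 3.15. The groups did not overlap for 31 of them with all *mdx5cv* muscles above all WT muscles, an arrangement found for 20.3% of all genes tested, and for *Cd163* with all below, as for 19.8% of all genes tested. *Plin2* passed the adjusted p but not the minimum fold change, and *Lyve1* and *Nos2* passed neither. The other 5 genes, *Timd4*, *Clec4n*, *Arg1*, *Chil3* and *Cd80*, averaged under 10 and were not tested. In all 31 genes that rose, the highest of the 4 *mdx5cv* values was that of replicate 4, which was also the highest of the *mdx5cv* muscles for 83.6% of all genes called higher and for 34.7% of all genes tested. Without this muscle the median log2 fold change of the 35 genes was 2.91, and 29 of them rose.

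**Figure D1:**
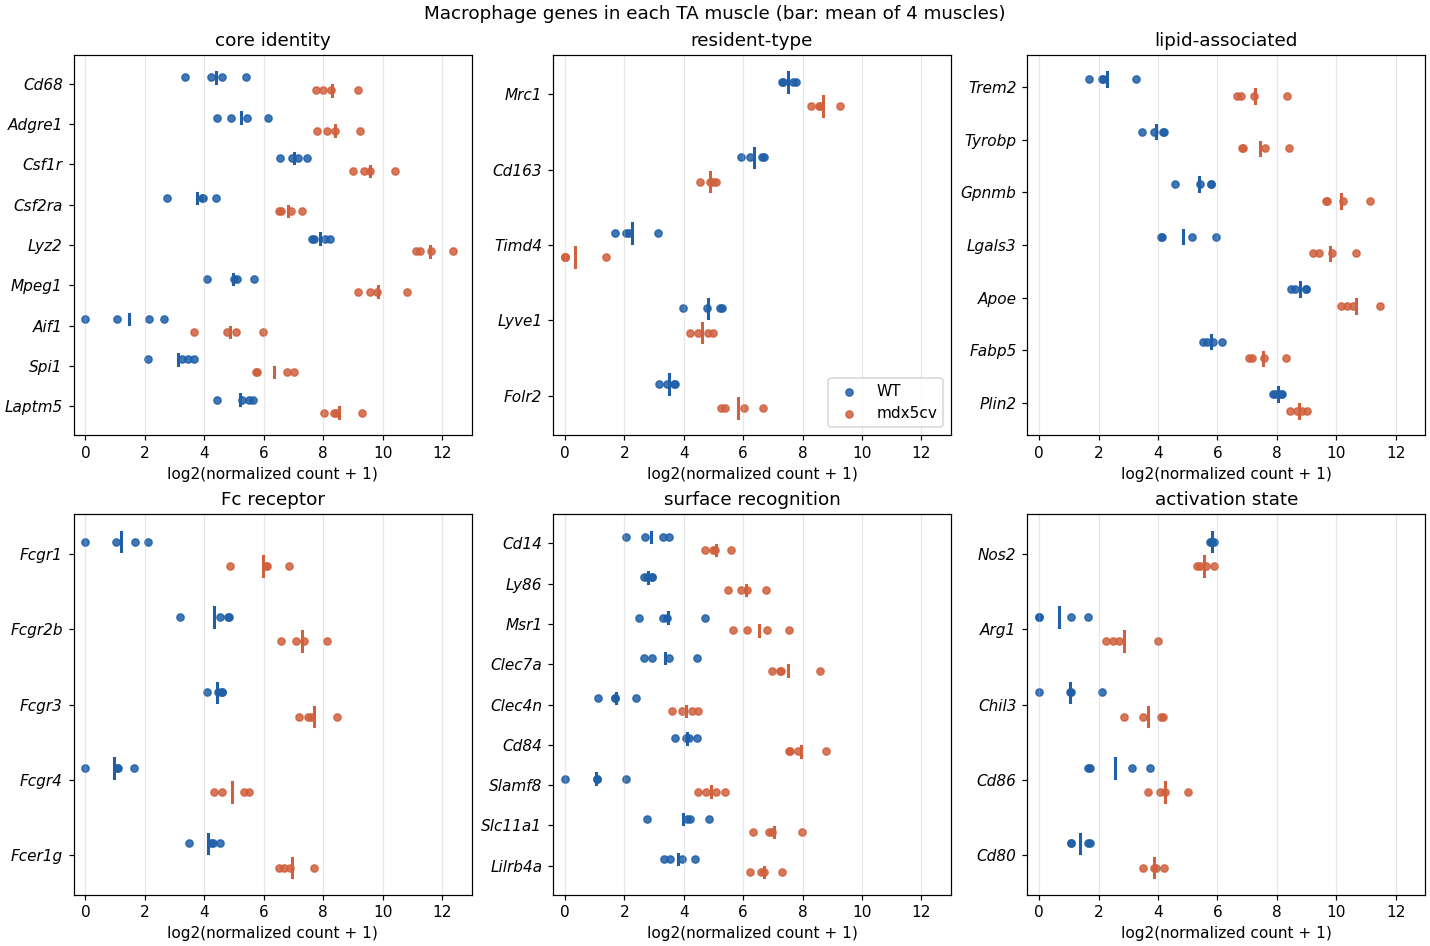
Normalized counts of the 40 macrophage genes on the log2(normalized count + 1) scale (x axis), by group of genes, with 1 point per muscle for the 4 WT (blue) and 4 *mdx5cv* (orange) muscles and a bar at the mean of each genotype. The *mdx5cv* points lie to the right of the WT points for 35 genes, to the left for *Cd163* and *Timd4*, and among them for *Lyve1*, *Nos2* and *Cd86*.

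All 9 core identity genes rose, with log2 fold changes from 2.56 to 4.89. *Cd68*, a glycoprotein of the lysosomes of phagocytes, had normalized counts of 9.17, 17.6, 40.9 and 23.3 in WT replicates 1 to 4 and of 308, 215, 256 and 579 in *mdx5cv* replicates 1 to 4. Every *mdx5cv* muscle was several times above the highest WT muscle, and the log2 fold change was 3.91 (SE 0.38, adjusted p = 7.35e-06 in limma). *Adgre1* (chr17:57358691-57483527, GRCm38), which encodes the surface protein F4/80 of mature mouse macrophages, had normalized counts of 20.6, 70.2, 28.7 and 42.4 in WT and of 334, 280.2, 219.7 and 597 in *mdx5cv*. It was low and variable in WT, where the second muscle was above the other 3, and its log2 fold change was 3.15 (SE 0.34, adjusted p = 1.81e-05). *Csf1r*, the receptor for the growth factors CSF1 and IL-34 on which macrophages depend, had normalized counts of 92.8, 140.4, 124 and 174 in WT and of 754, 664, 512 and 1368 in *mdx5cv*. These did not overlap either, and its log2 fold change of 2.56 (SE 0.26, adjusted p = 9.27e-06) was the smallest of the core genes. An exon stretch of *Csf1r* overlaps *Hmgxb3* on the opposite strand, and whether the counting used the strand was not given. *Spi1* encodes PU.1, a transcription factor that myeloid cells require. It had 11.5, 9.87, 3.32 and 8.47 normalized counts in WT and 108, 53.8, 52.2 and 130.3 in *mdx5cv*, a log2 fold change of 3.22 (SE 0.38, adjusted p = 3.19e-05). The other core genes rose too, from the smallest to the largest log2 fold change *Csf2ra* (3.07), the receptor chain specific for GM-CSF, *Laptm5* (3.33), a lysosomal membrane protein of blood cells, *Aif1* (3.40), which encodes the calcium-binding protein IBA1, *Lyz2* (3.69), a lysozyme, and *Mpeg1* (4.89), which encodes a pore-forming protein of phagocytes. Of the 50-base stretches of *Lyz2* transcripts, 15.4% are also in its near-copy *Lyz1*, whose log2 fold change was 1.95. *Lyz1* averaged 12.1 ± 2.17 normalized counts in WT and 53.6 ± 27.4 in *mdx5cv*, and *Lyz2* 243 ± 49.04 and 3285 ± 1416 (SD, n = 4).

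**Figure D2:**
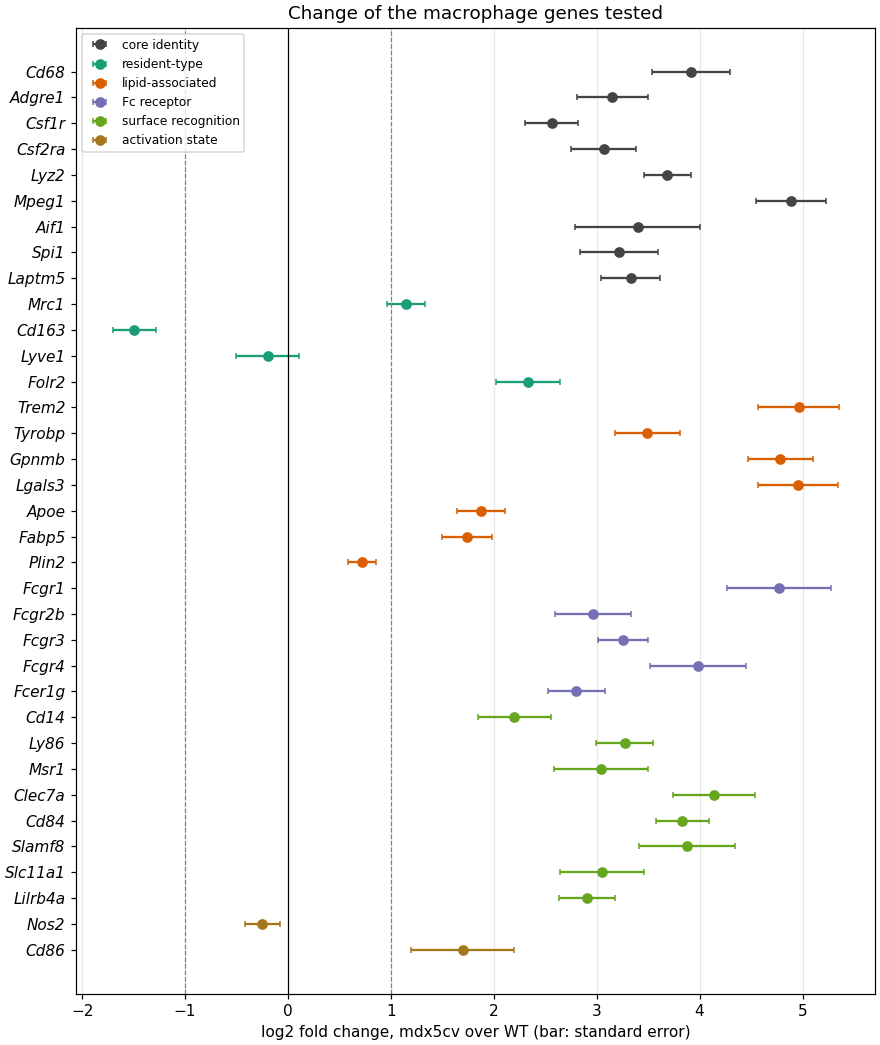
Log2 fold change of *mdx5cv* over WT (x axis) for the 35 macrophage genes tested, with bars of 1 SE from limma and colors for the groups of genes, and dashed lines at the minimum fold change for a call. The core identity, Fc receptor and surface recognition genes lie between 2.20 and 4.89, while the resident-type genes spread from -1.49 to 2.33 and the lipid-associated genes from 0.72 to 4.96.

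The resident-type genes moved in different directions. These are genes by which macrophages of healthy tissue, many of them close to vessels, are often recognised. Of the 5, *Mrc1* and *Folr2* rose, *Cd163* fell, *Lyve1* was not called and *Timd4* was too low to be tested, and the median log2 fold change of the 4 tested was 0.47. *Cd163* (chr6:124304656-124330527, GRCm38) encodes the scavenger receptor for complexes of hemoglobin and haptoglobin. Its normalized counts were 59.6, 73.5, 104 and 97.5 in WT and 33.4, 28.3, 22.5 and 30.4 in *mdx5cv*. All 4 *mdx5cv* muscles were below all 4 WT muscles, by a factor of 2.92 between the means, and the log2 fold change was -1.49 (SE 0.21, adjusted p = 0.000131 in limma). It remained a call in each of the fits in which a muscle was left out, with log2 fold changes from -1.64 to -1.38, and was -1.53 without *mdx5cv* replicate 4. *Mrc1* (chr2:14229392-14332057) encodes the mannose receptor CD206. Its normalized counts were 158, 217, 160.3 and 206 in WT and 385, 374, 309.8 and 615 in *mdx5cv*, so the highest WT muscle lay well under the lowest *mdx5cv* muscle. The log2 fold change was 1.15 (SE 0.19, adjusted p = 0.000401), the smallest of the called rises, and was 0.95 without *mdx5cv* replicate 4, just under the minimum for a call. *Folr2* (chr7:101839988-101857194), the folate receptor beta, had normalized counts of 8.02, 12.1, 9.95 and 11.7 in WT and of 63.9, 40.6, 36.9 and 101 in *mdx5cv*. It was about equally low in the 4 WT muscles and rose in each *mdx5cv* muscle, with a log2 fold change of 2.33 (SE 0.31, adjusted p = 8.29e-05). Of its 1546 exon bases, 975 overlap *Gm10602* on the opposite strand, so its value is uncertain if the counting did not use the strand. *Lyve1* (chr7:110850607-110863239), a receptor for hyaluronan that lymphatic endothelium carries too, had normalized counts of 14.9, 38.4, 36.5 and 26.5 in WT and of 21.3, 27.4, 30.6 and 17.6 in *mdx5cv*. The groups overlapped, and its log2 fold change was -0.20 (SE 0.31, adjusted p = 0.633), or 0.14 under equal totals. *Timd4*, the phosphatidylserine receptor TIM-4, had normalized counts of 3.44, 2.19, 7.74 and 3.18 in WT and of 0, 0, 0 and 1.60 in *mdx5cv*. These stand for 2 to 7 reads in each WT muscle, while 3 *mdx5cv* muscles had no read and the other had 2.

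Markers of lymphatic endothelium, the other cell type known for *Lyve1*, were read in the same muscles. Of 4 such genes tested, 1, *Ccl21a*, rose, and their summed normalized counts ranged from 212 to 259.96 in WT and 193 to 241 in *mdx5cv*. *Prox1*, used as a marker of that cell type, had a log2 fold change of 0.96 (SE 0.26, adjusted p = 0.00940 in limma). It was under the minimum for a call, but every *mdx5cv* muscle was above every WT muscle. *Flt4* was at -0.36 and *Reln* at -0.44, neither with an adjusted p under 0.05. These last genes weigh most in the sums, with WT means of 101 and 111, against 16.2 for *Prox1* and 8.46 for *Ccl21a*. The part of the 4 markers in the *Lyve1* level was not tested.

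All 7 lipid-associated genes had higher levels in every *mdx5cv* muscle than in any WT muscle, and 6 were called. The size of the difference varied widely, from 0.72 to 4.96 on the log2 scale. *Trem2* (chr17:48346401-48354147, GRCm38), a lipid-sensing receptor of macrophages and microglia, had normalized counts of 3.44, 3.29, 2.21 and 8.47 in WT and of 149, 99.996, 109 and 326 in *mdx5cv*. It went from 2 to 8 reads in a WT muscle to 106 to 408 in an *mdx5cv* muscle, with a log2 fold change of 4.96 (SE 0.39, adjusted p = 2.03e-06 in limma). Its signaling partner *Tyrobp*, which encodes the adaptor DAP12, had normalized counts of 13.8, 17.6, 9.95 and 16.9 in WT and of 194, 112, 114 and 338 in *mdx5cv*, and a log2 fold change of 3.49 (SE 0.32, adjusted p = 5.17e-06). In WT muscle the normalized count of *Trem2* was 29.0% ± 14.2 of that of *Tyrobp*, and in *mdx5cv* 89.5% ± 8.89 (SD, n = 4), without adjustment for the length of the transcripts. *Gpnmb* (chr6:49036546-49070929), a glycoprotein of lysosomes and melanosomes that lipid-laden macrophages express, had normalized counts of 22.9, 53.7, 42.01 and 54.02 in WT and of 1192, 803, 826 and 2245 in *mdx5cv*. *Lgals3* (chr14:47367751-47386160), which encodes galectin-3, had 16.04, 34.00, 16.6 and 61.4 in WT and 922, 589, 677 and 1631 in *mdx5cv*. In both the lowest *mdx5cv* muscle was far above the highest WT muscle, with a log2 fold change of 4.78 (SE 0.32, adjusted p = 6.23e-07) for *Gpnmb* and of 4.95 (SE 0.39, adjusted p = 1.85e-06) for *Lgals3*. The fold changes of the genes of lipid transport and storage were smaller. *Apoe*, the apolipoprotein that carries cholesterol out of cells, had normalized counts of 358, 509, 394 and 505 in WT and of 1519, 1329, 1139 and 2872 in *mdx5cv*, a log2 fold change of 1.88 (SE 0.23, adjusted p = 4.63e-05). *Fabp5*, a fatty acid binding protein, had 56.2, 70.2, 44.2 and 49.8 in WT and 189.9, 143, 132 and 314 in *mdx5cv*, a log2 fold change of 1.74 (SE 0.24, adjusted p = 0.000120). *Plin2* coats lipid droplets in many cell types, muscle fibers included. Its normalized counts were 278, 233, 247 and 287 in WT and 462, 348, 404 and 519 in *mdx5cv*, so the groups did not overlap, but the log2 fold change of 0.72 (SE 0.13, adjusted p = 0.000957) was under the minimum for a call. Under equal totals it was 1.08, which is a call. Of the 50-base stretches of the transcripts, 5.48% for *Fabp5* and 2.57% for *Plin2* are shared with other genes. Adipocyte markers were lower in *mdx5cv*, where 3 of 4 fell, and their summed normalized counts ranged from 58.4 to 464 in WT and 14.8 to 51.9 in *mdx5cv*. Their part in the lipid-associated genes was not tested.

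All 5 Fc receptor genes rose. Fc receptors bind the constant part of antibodies, and 4 of these genes encode the chains that bind IgG, of which *Fcgr1*, *Fcgr3* and *Fcgr4* are activating and *Fcgr2b* is inhibitory, while *Fcer1g* encodes the gamma chain through which the activating receptors signal. *Fcgr1* (chr3:96282909-96293969, GRCm38), the high-affinity receptor, had normalized counts of 0, 3.29, 2.21 and 1.06 in WT and of 68.6, 66.98, 27.9 and 114 in *mdx5cv*. From 0 to 3 reads in a WT muscle it went to 31 to 143 reads in an *mdx5cv* muscle, with a log2 fold change of 4.77 (SE 0.50, adjusted p = 1.39e-05 in limma). *Fcgr4* (chr1:171018920-171029761) had 1.15, 0, 1.11 and 2.12 in WT and 23.2, 39.6, 18.9 and 43.95 in *mdx5cv*, a log2 fold change of 3.98 (SE 0.47, adjusted p = 3.07e-05). These genes with nearly no reads in WT had the largest changes of the group, and the size of those changes depends on the pseudocount, with a range over the alternatives from 2.66 to 5.99 for *Fcgr1* and from 1.85 to 5.29 for *Fcgr4*. *Fcgr3* (chr1:171051174-171064935) had 16.04, 23.03, 21.01 and 23.3 in WT and 193, 178, 146 and 356 in *mdx5cv*, a log2 fold change of 3.25 (SE 0.24, adjusted p = 1.31e-06). The inhibitory *Fcgr2b* (chr1:170958617-170976547) had 8.02, 27.4, 26.5 and 22.2 in WT and 136, 163, 95.5 and 277 in *mdx5cv*, a log2 fold change of 2.96 (SE 0.37, adjusted p = 4.97e-05). *Fcer1g* (chr1:171229572-171234365) had 10.3, 17.6, 18.8 and 22.2 in WT and 118, 102, 90.05 and 205 in *mdx5cv*, a log2 fold change of 2.80 (SE 0.28, adjusted p = 9.24e-06). The 3 activating IgG receptors together were at 130% ± 57.3 of the normalized count of *Fcgr2b* in WT and at 193% ± 15.6 in *mdx5cv* (SD, n = 4), and the WT muscles ranged from 91.7% to 214%, so the groups overlapped. *Fcgr3* shares 9.58% of its 50-base stretches with *Fcgr2b*, so a part of their reads could not be assigned with certainty, and exons of *Fcgr2b* overlap *Gm38204* on the opposite strand. *Fcer1g* is also part of the IgE receptor of mast cells. Of 5 mast cell markers, 3 were tested and 1, *Mcpt4*, rose, and the summed normalized counts of the 5 ranged from 28.7 to 66.9 in WT and 59.3 to 113 in *mdx5cv*, with *Fcer1a*, the chain that binds IgE, at 1.15, 1.10, 0 and 0 in WT and 0, 0.943, 1.80 and 0.799 in *mdx5cv*. Their part in the *Fcer1g* level was not tested.

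The sequence just before the start of some of these genes is given to show where they hold the core of the PU box, to which PU.1 can bind. RefSeq promoters (GRCm38.p6) were found for 27 of the 40 genes. The letters GAGGAA, on either strand, were present in the 250 bases before the start of 12 of these 27 (44.4%), and of 25.9% of all 27025 genes with a promoter in the same table. The 80 bases before the start follow, 5′ to 3′ on the strand of the gene, with the box in capitals (TTCCTC where it lies on the other strand). They are for 3 Fc receptor genes and the lipid-associated *Trem2* that hold it there and that rose, and for *Gpnmb*, which rose, and *Cd163*, which fell, without it in these 80 bases. The remaining Fc receptor genes, *Fcgr2b* and *Fcer1g*, rose as well and have no box in these 80 bases. The same holds for *Lyz2*, *Mpeg1* and *Lgals3*, among others, so the genes shown do not relate the box to a rise.
*Fcgr1* (chr3:96293970-96294049, minus strand): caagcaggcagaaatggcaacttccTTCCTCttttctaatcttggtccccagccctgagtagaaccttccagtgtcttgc
*Fcgr3* (chr1:171059404-171059483, minus strand): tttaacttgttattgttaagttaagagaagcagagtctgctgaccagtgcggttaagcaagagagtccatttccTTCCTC
*Fcgr4* (chr1:171018846-171018925, plus strand): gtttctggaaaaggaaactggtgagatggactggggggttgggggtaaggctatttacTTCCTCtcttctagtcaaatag
*Trem2* (chr17:48346321-48346400, plus strand): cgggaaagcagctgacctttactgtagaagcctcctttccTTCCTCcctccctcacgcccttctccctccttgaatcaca
*Gpnmb* (chr6:49036438-49036517, plus strand): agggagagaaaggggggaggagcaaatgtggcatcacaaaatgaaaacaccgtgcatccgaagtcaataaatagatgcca
*Cd163* (chr6:124304571-124304650, plus strand): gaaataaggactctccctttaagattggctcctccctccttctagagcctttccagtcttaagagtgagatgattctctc
Within the 250 bases the box is present before genes of different groups, including *Mrc1*, *Cd68*, *Apoe* and *Clec7a*. *Mrc1* has it in the 80 bases before the start, and *Cd68*, *Apoe* and *Clec7a* do not. These are matches of letters, and no binding was measured.

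The 9 surface recognition genes were higher in all *mdx5cv* muscles than in all WT muscles, and the 8 that were tested rose. *Clec7a*, which encodes dectin-1, a receptor for fungal glucans, had normalized counts of 10.3, 20.8, 6.63 and 5.30 in WT and of 150.1, 154, 125 and 386 in *mdx5cv*, a log2 fold change of 4.14 (SE 0.40, adjusted p = 6.95e-06 in limma). *Slamf8*, a receptor of the SLAM family on myeloid cells, had 0, 1.10, 1.11 and 3.18 in WT and 21.3, 33.02, 26.1 and 40.8 in *mdx5cv*, a log2 fold change of 3.88 (SE 0.47, adjusted p = 4.12e-05). Both were the largest changes of this group. The log2 fold change was 3.83 for *Cd84*, another SLAM family receptor, 3.27 for *Ly86*, which encodes a partner of the receptor RP105, 3.05 for *Slc11a1*, a metal ion transporter of phagosomes, 3.04 for *Msr1*, a class A scavenger receptor, 2.91 for the inhibitory receptor gene *Lilrb4a*, and 2.20 for *Cd14*, a co-receptor for bacterial lipopolysaccharide. *Clec4n*, which encodes dectin-2, was not tested, and averaged 2.45 ± 1.29 normalized counts in WT and 16.5 ± 4.51 in *mdx5cv* (SD, n = 4). Of the 50-base stretches of *Lilrb4a*, 46.7% are also in other genes. Of its 5227 exon bases, 1846 overlap *Gm49339* on the same strand and 131 overlap *Gm40645* on the opposite strand, so its value is uncertain. Its near-copy *Lilr4b* had a log2 fold change of 3.31.

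Of the 5 genes that are used to name opposed states of activation, 3 had too few reads to be tested, 1 rose and 1 was not called. *Nos2*, the inducible nitric oxide synthase of classically activated macrophages, had normalized counts of 55.01, 53.7, 53.1 and 58.3 in WT and of 41.7, 58.5, 38.7 and 47.9 in *mdx5cv*. The groups overlapped, and the log2 fold change was -0.25 (SE 0.17, adjusted p = 0.276 in limma). *Cd86*, a co-stimulatory ligand, had 2.29, 7.68, 12.2 and 2.12 in WT and 15.7, 17.9, 11.7 and 31.2 in *mdx5cv*. It rose by a log2 fold change of 1.70 (SE 0.50, adjusted p = 0.0156), although the highest WT muscle was above the lowest *mdx5cv* muscle, and without *mdx5cv* replicate 4 its adjusted p was 0.0539 from limma. The other 3 genes were not tested. *Arg1*, the arginase of alternatively activated macrophages, had 0, 0, 1.11 and 2.12 in WT and 4.63, 3.77, 5.40 and 15.2 in *mdx5cv*. *Chil3*, which encodes the chitinase-like protein Ym1, had 0, 3.29, 1.11 and 1.06 in WT and 10.2, 16.98, 6.30 and 15.98 in *mdx5cv*. The co-stimulatory ligand *Cd80* had 2.29, 1.10, 1.11 and 2.12 in WT and 10.2, 14.2, 13.5 and 17.6 in *mdx5cv*. In each of these 3 the *mdx5cv* muscles were all above the WT muscles, with at most 22 reads in a muscle. With no filter on low values, limma called these 3 and *Clec4n* higher and *Timd4* lower, and in DESeq2 the adjusted p of *Timd4* was 0.0544. Of the 50-base stretches of *Chil3*, 26.9% are also in other genes, so its counts are uncertain, and 16.9% are in *Chil4*, which had no read in any muscle.

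To set resident-type, lipid-associated and Fc receptor genes against each other, each gene was expressed relative to *Adgre1* in the same muscle, as the difference of the log2(normalized count + 1) values, and these differences were compared between the genotypes. By limma, 5 of 34 macrophage genes rose more than *Adgre1* and 8 rose less or fell, where 0.314% of all genes tested rose more and 95.7% rose less. The sampling error of *Adgre1* is shared by all genes in this fit, which makes its p-values too small. With the variance of each gene estimated alone, 6 rose more and 9 less, against 0.344% and 95.5% of all genes, and the SE and adjusted p-values that follow are from that fit. Of the 6, *Trem2* and *Fcgr1* averaged under 10 in WT. They passed the filter on the mean only through their *mdx5cv* values, so their rise was favored by it. Of the resident-type genes, *Cd163* changed relative to *Adgre1* by -4.65 (SE 0.45, adjusted p = 0.00149) on the log2 scale, *Lyve1* by -3.35 (SE 0.54, adjusted p = 0.00159), *Mrc1* by -2.01 (SE 0.28, adjusted p = 0.00149) and *Folr2* by -0.82 (SE 0.27, adjusted p = 0.0251). All 4 were called lower relative to *Adgre1* in that fit, as were 95.5% of all genes, since a gene with no change of its own lies below *Adgre1* by the rise of *Adgre1*. *Folr2* was not called by the limma fit with shared variance. The normalized count of *Cd163* was 289%, 105%, 362% and 230.0% of that of *Adgre1* in WT replicates 1 to 4 and 9.97%, 10.1%, 10.2% and 5.09% in *mdx5cv* replicates 1 to 4. That of *Mrc1* was 767%, 309%, 558% and 485% in WT and 115%, 133%, 141% and 103% in *mdx5cv*. These shares are not adjusted for the length of the transcripts, so they compare muscles and not genes, and for both genes every *mdx5cv* muscle was below every WT muscle.

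The lipid-associated genes divided. *Trem2* changed relative to *Adgre1* by 1.81 (SE 0.46, adjusted p = 0.00822), *Lgals3* by 1.80 (SE 0.36, adjusted p = 0.00305) and *Gpnmb* by 1.63 (SE 0.22, adjusted p = 0.00149), whereas *Apoe* changed by -1.28 (SE 0.26, adjusted p = 0.00326), *Fabp5* by -1.41 (SE 0.31, adjusted p = 0.00462) and *Plin2* by -2.43 (SE 0.47, adjusted p = 0.00268). With a pseudocount of 10 in place of 1, *Trem2* was at 0.66 with an adjusted p of 0.156 in limma and was not called. *Tyrobp* was not called, at 0.34 (SE 0.31, adjusted p = 0.324). Among the Fc receptor genes, *Fcgr1* rose more, by 1.62 (SE 0.34, adjusted p = 0.00381), and the others were not called. The rise of *Fcgr1* beyond *Adgre1* rests on the pseudocount, since with a pseudocount of 10 the difference was -0.20 with an adjusted p of 0.663 in limma. Their differences were 0.83 (SE 0.68, adjusted p = 0.272) for *Fcgr4*, 0.10 (SE 0.28, adjusted p = 0.736) for *Fcgr3*, -0.19 (SE 0.30, adjusted p = 0.553) for *Fcgr2b* and -0.35 (SE 0.30, adjusted p = 0.291) for *Fcer1g*. Outside these groups, *Mpeg1* (log2 difference 1.73) and *Clec7a* (0.98) rose more, and *Nos2* (-3.40) and *Cd86* (-1.46) less. *Clec7a* was not called by the limma fit with shared variance (adjusted p = 0.0689). In the fit with the variance of each gene alone its adjusted p was 0.0496. An exact permutation test over the 8 muscles, two-sided and without adjustment for the 34 ratios tested, gave p = 0.0286, the smallest that 4 against 4 samples allow, for 13 of these ratios. Its p was 0.0571 for *Folr2* and *Clec7a*, and it was 0.0286 for the other 13 genes called in that fit. The rises beyond *Adgre1* depended on the reference gene. With *Cd68* in its place 0 genes rose more and 11 rose less by limma, and with *Csf1r* 12 rose more and 6 less. *Cd163*, *Lyve1*, *Nos2*, *Mrc1*, *Plin2* and *Fabp5* rose less or fell with each of the 3 references.

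**Figure D3:**
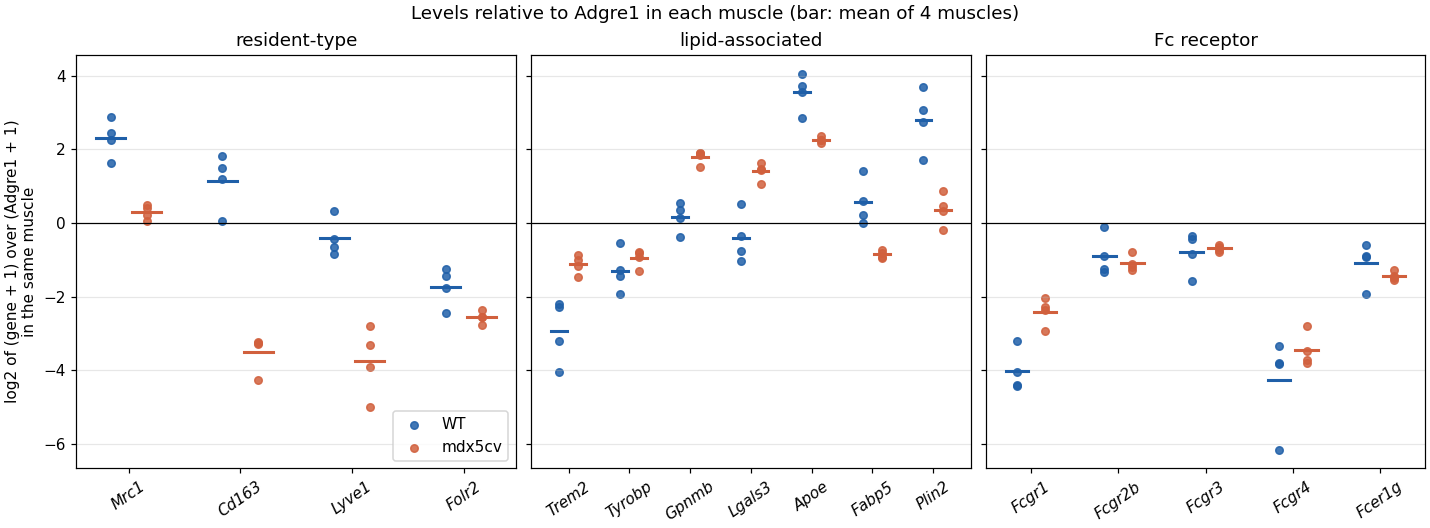
Level of each resident-type, lipid-associated and Fc receptor gene tested relative to *Adgre1* in the same muscle, as the log2 ratio of the normalized counts with 1 added to each (y axis), with 1 point per muscle and a bar at the mean of the 4 WT (blue) or 4 *mdx5cv* (orange) muscles. The *mdx5cv* points lie below the WT points for *Mrc1*, *Cd163*, *Lyve1*, *Apoe*, *Fabp5* and *Plin2*, above them for *Trem2*, *Gpnmb*, *Lgals3* and *Fcgr1*, and overlap with them for *Folr2*, *Tyrobp* and the other Fc receptor genes.

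Levels of different genes were compared per length, as the normalized count per kb of exon in GENCODE M21. The length is that of the merged exons of all transcripts of a gene. It can exceed that of the transcript in the muscle, so levels and ranks between genes are approximate. In WT muscle the highest of the 40 genes were *Apoe* at 206 ± 36.2, *Lyz2* at 185 ± 37.3, *Plin2* at 74.4 ± 7.36 and *Mrc1* at 29.1 ± 4.78 (SD, n = 4). *Apoe* and *Lyz2* did not differ beyond their spread, and *Plin2* lay between them and *Mrc1* at a distance larger than its SD. In *mdx5cv* muscle they were *Lyz2* at 2496 ± 1076, *Apoe* at 802 ± 368, *Lgals3* at 514 ± 254, *Tyrobp* at 284 ± 159 and *Cd68* at 270.04 ± 131 (SD, n = 4). *Lyz2* lay above *Apoe* by more than the sum of their SDs, and the ranges of 1 SD of the neighbours after it overlap, with replicate 4 the highest for each of these genes. *Mrc1* went from rank 4 of 40 in WT to rank 15 in *mdx5cv*, *Cd163* from 11 to 36, and *Lyve1* from 16 to 34. *Trem2* went from rank 34 to 21, *Gpnmb* from 19 to 7 and *Fcgr1* from 37 to 24. All 40 genes together held between 0.00905% and 0.0152% of the reads in WT and between 0.0703% and 0.207% in *mdx5cv*.

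**Figure D4:**
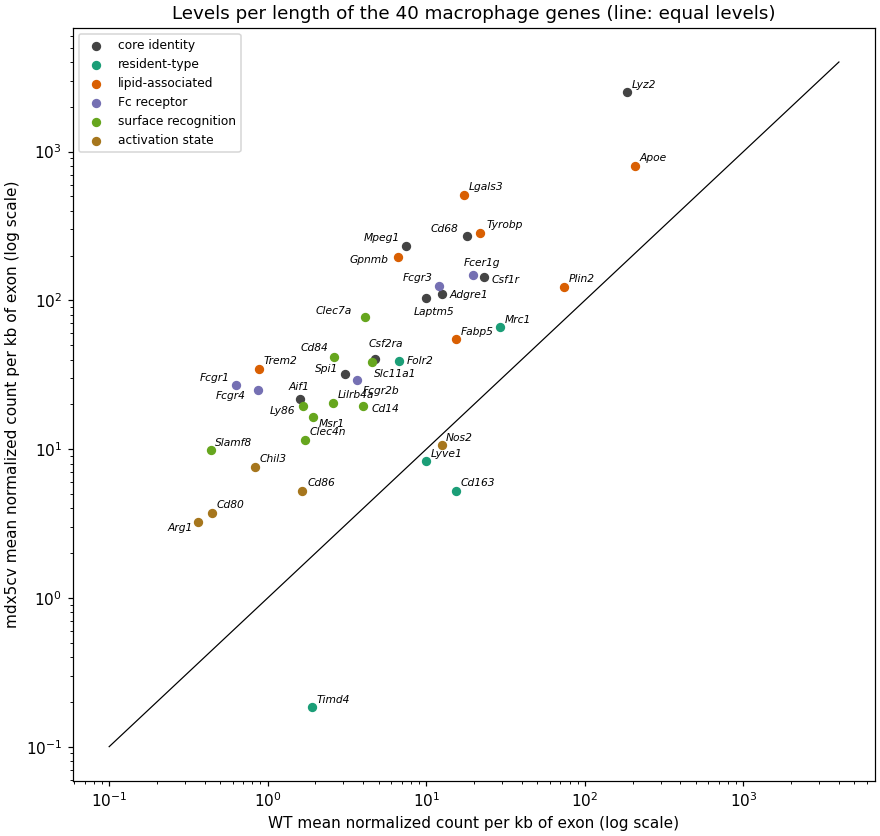
Mean normalized count per kb of exon in 4 WT muscles (x axis, log scale) and in 4 *mdx5cv* muscles (y axis, log scale) for the 40 macrophage genes, colored by group, with a line at equal levels. *Cd163*, *Timd4*, *Lyve1* and *Nos2* lie below the line and the other 36 genes above it.

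Other genes of the same pathways were taken from lists of their ligands, signaling proteins and regulators. Of 5 ligands and shared chains for the CSF receptors, 4 were tested and 2 rose. The largest change was that of *Csf2rb*, the shared signaling chain, with a log2 fold change of 2.34 (SE 0.21, adjusted p = 5.28e-06 in limma), while the ligand genes *Csf1* and *Il34* were not called, with log2 fold changes of 0.49 and 0.35, and *Csf2* had no read. Of 9 myeloid transcription factors, 3 rose and 0 fell, with the largest change for *Runx1*, at 3.51 (SE 0.21, adjusted p = 3.99e-07). *Irf5* and *Nr1h3* had log2 fold changes of -0.81 and -0.58 with an adjusted p under 0.05 but under the minimum fold change. Of 10 genes of ITAM and ITIM signaling, the pathway of the Fc receptors and DAP12, 9 were tested and 8 rose, with a median log2 fold change of 3.15, and *Lyn*, at 0.94, was under the minimum. The largest change was that of *Vav1*, a guanine nucleotide exchange factor, at 3.93 (SE 0.66, adjusted p = 0.000477). Of 9 genes of lipid handling, 7 rose and 1 fell. *Spp1*, which encodes osteopontin, had the largest rise, with a log2 fold change of 4.67 (SE 0.44, adjusted p = 5.98e-06). The fatty acid transporter *Cd36*, which muscle fibers and endothelium express too, fell by a log2 fold change of -1.09 (SE 0.17, adjusted p = 0.000231). Of 11 further genes of resident macrophages and of the uptake of dead cells, 7 were tested and 4 rose. *Siglec1*, a sialic acid receptor of macrophages, had the largest change, at 3.23 (SE 0.43, adjusted p = 8.88e-05). *Stab1*, *Mertk* and *Axl* rose too, with log2 fold changes of 1.52, 1.27 and 1.03. *F13a1*, at 0.57, and *Gas6*, at -0.43, had an adjusted p under 0.05 but were under the minimum fold change. *Cbr2*, at -0.35, passed neither, and *Vsig4* and *Marco* had a mean normalized count under 1 in both genotypes. By the same rule as for the members, 10.3% of all genes tested rose and 3.27% fell.

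Markers of other cell types that share some of these genes were read in the same muscles. Of 6 neutrophil markers only *Csf3r*, which macrophages can express too, was tested, with a log2 fold change of 2.88 (SE 0.43, adjusted p = 0.000193 in limma). The defining *S100a8*, *S100a9*, *Ly6g*, *Cxcr2* and *Retnlg* had normalized counts of at most 5.59 in any muscle. The summed normalized counts of 5 T cell markers ranged from 2.29 to 4.39 in WT and 17.6 to 45.5 in *mdx5cv*, and those of 4 B cell markers from 4.42 to 17.6 in WT and 1.80 to 12.8 in *mdx5cv*; none of either was high enough to be tested. Of 5 dendritic cell markers, *Zbtb46* was tested and not called (log2 fold change 0.05), and the sums ranged from 98.7 to 138 in WT and 134 to 185 in *mdx5cv*. *Clec9a*, *Xcr1*, *Ccr7* and *Flt3* were above all WT muscles in each *mdx5cv* muscle, at normalized counts of at most 27.2. All 4 markers of regenerating fibers rose, and 2 of 4 fibroblast markers, with the largest change for *Mymk* (7.28) and *Col1a1* (3.13). In replicate 4, the *mdx5cv* muscle with the highest macrophage genes, the regenerating fiber markers were highest too, their median rise over the WT mean being 6.85 on the log2 scale, and 4.83 to 5.85 in the other *mdx5cv* muscles. For the macrophage genes tested it was 3.99, and 2.63 to 3.17 in the others. Of 5 adult fiber markers 0 were called by limma, although 2 had an adjusted p under 0.05. The part of these cells in the results was not tested.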

How the data were processed

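Whole TA muscles of 4 *mdx5cv* and 4 WT mice were compared, with groups from the sample titles. The authors deposited a signal per gene, which is read counts divided by a size factor per sample, for all 55401 genes. The submitters' processing notes name FastQC, Trim Galore 0.6.4, STAR 2.6.0c, SAMtools 1.9, featureCounts, MultiQC 1.6, and DESeq2 1.26.0 in R 3.6.2 with the mm10 build; the libraries were stranded total RNA with depletion of ribosomal RNA, and the strand setting of the counting is not given in the sources used here. Whole reads were recovered for 100% of the values (within 0.001 of a whole number). Replicates differed by more than sampling noise (chi-square over degrees of freedom 8.59 to 38.4), and each counted as 1 sample.

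The groups were compared with limma 3.58.1 (lmFit, eBayes with a variance trend, no covariate) in R 4.3.3 on log2(normalized count + 1) over 13677 genes with a mean of at least 10, and the recovered reads were also tested with edgeR 4.0.16 and with DESeq2 1.42.0. Levels relative to *Adgre1* used the same fit over 13676 genes; the fit with the variance of each gene alone and the exact permutation test were added after the data were seen. The tests were tried on simulated data first. Summaries and plots were made in Python 3.11.15 with scipy 1.17.1. Coordinates come from GENCODE M21, in which 55141 of the gene IDs were found with versions ignored, and the 50-base comparison used its transcripts.

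The 40 genes, the other lists and the tests were chosen with earlier results of these data known. By the rule for naming genes, all members are named, every tested member of the resident-type, lipid-associated, Fc receptor and activation state groups is given in each muscle, as are *Cd68*, *Adgre1*, *Csf1r*, *Spi1* and the 2 surface recognition genes with the largest change, and each pathway list is given by its counts and its largest call; other genes of those lists were named after their values were seen. Alternatives were another pseudocount or filter, other scalings and tests, a fit with no variance trend, a block for the replicate number, leaving out each muscle, other thresholds and other reference genes.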

Additional observations from a re-analysis of the deposited data

Results flagged for a closer look

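For each of the 40 genes and both genotypes, the gap of the highest or lowest muscle to its nearest neighbour was compared with the range of the 4 muscles on the log2 scale. In 1 of these 80 sets a muscle stood apart by Dixon's criterion, and about 4 (1 in 20) would be flagged by chance if no values were tied. *Timd4* had a normalized count of 1.60 in *mdx5cv* replicate 4, from 2 reads, and no read in the other 3 *mdx5cv* muscles.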

How the results depend on the processing

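The counts of genes that rose and fell, 31 and 1, were the same with a pseudocount of 0.1, without the variance trend, with TMM factors and in edgeR. The number that rose was 13 of 17 tested when every muscle had to reach a normalized count of 10. That filter left out the genes with a low value in a WT muscle. The number that fell was 2 with no filter on low values and 0 with a minimum fold change of 2 on the log2 scale. Leaving out each muscle in turn gave 29 to 31 genes that rose and 1 that fell, with 29 without *mdx5cv* replicate 4, where *Mrc1* and *Cd86* were not called. Under equal totals *Lyve1* was at 0.14 and *Nos2* at 0.10, both without a call. In this section the counts relative to *Adgre1* come from the limma fit with shared variance, whose p-values are too small. The fit with the variance of each gene alone was not repeated under the alternatives. Relative to *Adgre1*, the number that rose more was 8 with a pseudocount of 0.1, 3 with a pseudocount of 10 and 3 with at least 10 in every muscle, 12 with *Csf1r* and 0 with *Cd68* as the reference; the number that rose less was 13 with a pseudocount of 10. With a pseudocount of 10 *Fcgr1* was at -0.20 relative to *Adgre1*. Leaving out each muscle gave 5 to 6 that rose more and 6 to 10 that rose less; *Apoe* and *Cd86* lost the call in several of these fits. Of 862 values of single genes under an alternative, 833 kept their direction and their side of the threshold for the adjusted p. Of the others, 17 no longer passed that threshold, 9 newly passed it and 3 changed sign. The minimum fold change had no part in these numbers, so they do not count calls. *Mrc1* without *mdx5cv* replicate 4, which lost the call, and *Plin2* under equal totals, which gained it, are among the 833.

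Muscles with the same replicate number had correlations of deviations from 0.031 to 0.146, and 2 of the 4 WT muscles correlated best with their own number, so the numbers were not taken as pairs. With the replicate number as a block, 31 genes rose and 1 fell, and 5 rose more and 8 less than *Adgre1*. Genes with a few reads in WT, such as *Fcgr1*, *Fcgr4*, *Slamf8* and *Aif1*, have fold changes that depend on the pseudocount.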
